A study of Macaca mulatta with 5 samples.

Results

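The heart library of a male rhesus macaque (Macaca mulatta) was compared with the libraries of cerebellum, kidney, lung and spleen, so that the heart is 1 of 5 samples. The samples were taken by their tissue labels, and their 51763 transcripts were joined by identifier. All 5 were strand-specific poly(A)-positive RNA-Seq libraries from tissue labelled male. Heart, cerebellum, kidney and lung came from the same animal according to the study, whereas the animal of the spleen is not stated, and the labels do not give the chamber of the heart. There was 1 library per tissue, without replicates, so no test between tissues was possible. The intervals below are 95% intervals that cover counting error only, not the variation between animals or dissections.

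Heart muscle contracts through sarcomeres, in which thick filaments of myosin pull on thin filaments of actin anchored at Z-discs. Each beat is started by ion currents and by calcium released from the sarcoplasmic reticulum. The energy comes mostly from mitochondria that burn fatty acids, and myoglobin and creatine kinase buffer oxygen and phosphate bonds. Besides cardiomyocytes the organ holds endothelial cells, fibroblasts, smooth muscle and blood cells. In a bulk library, fewer cells of a type and less RNA per cell cannot be told apart.

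The depth of the heart library set its scale. The heart file stated 63322572 properly mapped reads, within the range of 48306898 to 81517974 in the other 4. The reads counted on transcripts summed to 30336361, or 47.9% of that number, against 71.3% for the cerebellum, 80.0% for the kidney, 86.2% for the spleen and 91.5% for the lung. Transcripts of 1 gene can carry the same read, which then enters this sum more than once. With 1 transcript per gene, the one with the highest summed RPKM, the heart still had the lowest ratio, 26.9% against 38.1% to 50.9%. By another measure, reads uniquely aligned to the transcriptome over total reads, the study reports heart as the highest of its tissues, without spleen. Why heart stands first there and last here was not tested. The 38 transcripts listed for the mitochondrial chromosome had 0 reads in every library, and where the remaining heart reads mapped was not tested. The deposited RPKM scales the reads of a transcript to its exon length and to all properly mapped reads. A second scale, the share, was therefore used beside it, in which the counted reads of the library replace the properly mapped reads. Going from RPKM to share raised heart against the other libraries by 1.49-fold (cerebellum) to 1.91-fold (lung). At 1 RPKM or more, 9314 genes were found in heart and 11436 to 13008 in the other tissues. At 1 or more by share, the numbers were 11244 in heart and 12279 to 13155 in the other tissues.

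The counted reads of heart were concentrated in few transcripts. The first transcript, of the ventricular myosin light chain gene MYL2, held 1.62% of them, and the first 20 transcripts held 12.5% (12.524 to 12.548%). The first 20 transcripts of each other library held 4.41% (spleen), 4.99% (cerebellum), 6.52% (lung) and 7.39% (kidney). The first 100 held 25.8% in heart and 11.4 to 15.7% elsewhere. In heart 806 transcripts carried 50% of the counted reads, fewer than in cerebellum (1763), kidney (1772), lung (1988) and spleen (2261). At the first transcript, and barely at the first 2 (2.85% against 2.79%), kidney was above heart, since it had 2.36% of its counted reads on 1 transcript that has no gene identifier. With 1 transcript per gene, the first 20 genes of heart held 19.1% of the reads on genes, against 6.02 to 10.9% in the other libraries.

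**Figure D1:**
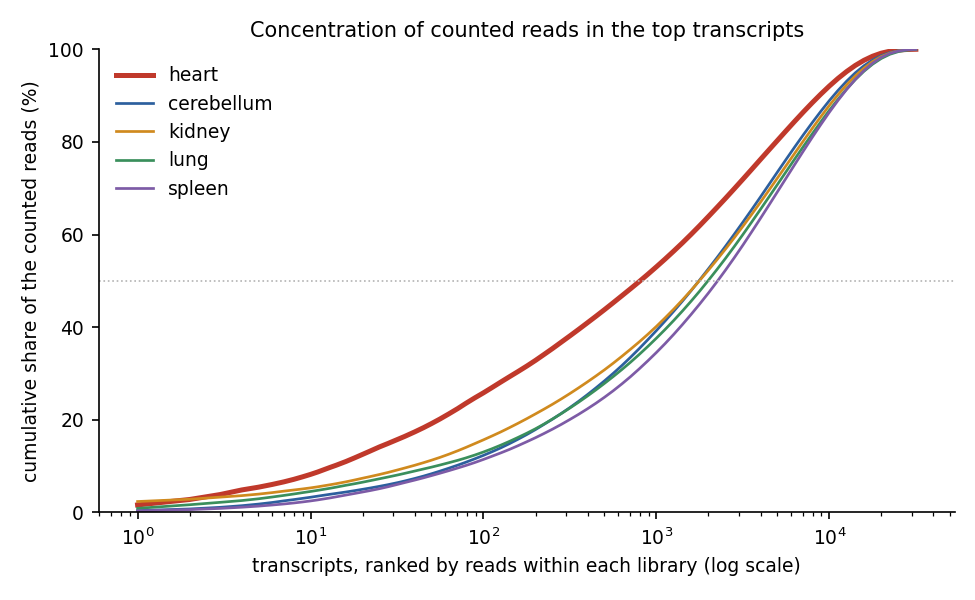
Cumulative share of the counted reads (%) against the number of transcripts, ranked by reads within each library, on a log axis, with 1 line per library and a dotted line at 50%. The heart line reaches 25.8% at 100 transcripts and 50% at 806 transcripts, to the left of the lines of the other tissues, while at the first transcript kidney (2.36%) lies above heart (1.62%).

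The 20 transcripts with most reads in heart came from 13 genes, of which 4 had more than 1 entry among the 20. MYL2 had 490247 reads, MYH7 (the beta heavy chain of cardiac myosin) 357601, MB (myoglobin, the oxygen store of muscle) 323470 and ACTC1 (cardiac alpha-actin) 300388. One transcript of TTN, the giant elastic protein titin, followed with 181900 reads. The other named genes were CRYAB and HSPB7 (small heat shock proteins), ACTA1 (skeletal alpha-actin), DES (desmin, the intermediate filament of muscle), ANKRD1 (a stress-responsive nuclear and sarcomeric protein) and FHL1 (a LIM-domain protein). These 20 transcripts held 12.5% of the counted reads in heart and 0.308% (spleen) to 0.557% (kidney) in the other tissues. One of them, from the unnamed gene ENSMMUG00000018810, was not particular to heart, with 0.396% of the counted reads in heart, 0.400% in cerebellum and 0.494% in kidney. The name of another gene, ENSMMUG00000013507 (chr1:169126019-169140268, rheMac2), is uncertain. The symbol table calls it LAD1, a gene that lies beside TNNT2 in the RefSeq gene order, and it had 2354 RPKM in heart and 0.966 to 6.76 RPKM elsewhere.

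In all, 28633 genes had an identifier, and 15688 of them reached 1 RPKM in at least 1 library. A gene was called higher in heart where its heart value was at least 1 RPKM and at least 4 times the highest other library, and lower where every other library had at least 1 RPKM and heart was at most 0.25 of the lowest. Values under 3 reads were set to the level of 3 reads. By RPKM, 200 genes were higher in heart (1.27% of the genes examined) and 512 were lower (3.26%). By share, 331 of 16095 genes were higher (2.06%) and 179 were lower (1.11%). The balance of higher and lower calls thus depended on the scale, since 28.1% of the calls were higher in heart by RPKM and 64.9% by share. All 200 genes higher by RPKM were also higher by share, whereas 156 of the 512 lower genes were lower on both scales. The median log2 ratio of heart to the median of the other libraries was -1.41 by RPKM and -0.61 by share over the genes with 1 RPKM in any library, a shift of 0.81. Heart was the lowest of the 5 libraries for 52.6% of genes by RPKM and for 32.8% by share, and the highest for 5.4% and 12.2%. Values below are RPKM unless the share is named.

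Of the 200 higher genes, 153 had a usable symbol, 100 were under 1 RPKM in every other library, and 60 were at least 100-fold above the highest of them. Among the 193 genes of 100 RPKM or more in heart, a choice by heart level that itself favours a call, 60 were called higher. The most abundant gene of the heart library was MYL2 (chr11:111843768-111853715), with 8406 RPKM (8383 to 8430) against 2.08 in cerebellum, 0.227 in spleen, 0.0279 in lung and 0 reads in kidney. MB (chr10:79520868-79532046) had 4113 RPKM in heart and 0.0600 to 1.16 elsewhere. ACTC1 (chr7:13129175-13134566) had 3142 RPKM in heart and 0.296 to 3.24 elsewhere. For these 3 genes the highest other library was lower than heart by 4046-fold (3458 to 4764), 3559-fold (2970 to 4304) and 968-fold (876 to 1074). Next by symbol were CRYAB with 2827 RPKM, ACTA1 with 2053, MYL7 (the atrial regulatory light chain of myosin) with 1890 and COX7A1 (the muscle form of a cytochrome c oxidase subunit) with 1388. CRYAB and COX7A1 were also abundant outside the heart, at 26.2 to 308 and 37.2 to 173 RPKM, and exceeded the highest other library by 9.18-fold and 8.02-fold. The coding parts of ACTC1 and ACTA1 are alike, so the split between them is uncertain. The study kept uniquely mapped reads for its variant calling, but its methods do not say whether the counts follow that rule.

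Ranked by the ratio to the highest other library, the first 15 genes at 10 RPKM or more in heart included MYL2, MB, ACTC1 and MYL7 again. CSRP3, the muscle LIM protein of the Z-disc, had 616 RPKM in heart, 0.0981 in cerebellum, 0.0411 in lung and 0 reads in kidney and spleen. MYH7 (chr7:86250432-86274548) had 972 RPKM in heart, 0.215 in cerebellum, 0.0214 in kidney, 0.0155 in lung and 0 reads in spleen. A microRNA row inside MYH7, mml-mir-208b at chr7:86256995-86257591, had 456 RPKM in heart, and its reads cannot be told apart from those of MYH7. TECRL, a gene linked to inherited arrhythmia, had 128 RPKM (11206 reads) in heart, 2 reads in cerebellum and 0 reads in the other 3 libraries, a ratio of 7213-fold by the counted reads with a wide interval (1996 to 59567), or 2850-fold with the level of 3 reads that was used for the ranking. NPPA, which encodes atrial natriuretic peptide, had 129 RPKM in heart, 4 reads in cerebellum and 0 reads in kidney, lung and spleen. XIRP1 (an actin-binding protein of intercalated discs) had 75.05 RPKM, LMOD2 (an actin nucleator of thin filaments) 178 RPKM and NMRK2 (a nicotinamide riboside kinase of muscle) 205 RPKM in heart. None of these 3 genes exceeded 0.146 RPKM in any other library. Among genes without a symbol, ENSMMUG00000014353 (chr20:29522448-29523088) had 1650 RPKM in heart and at most 0.863 elsewhere, and ENSMMUG00000001262 (chr19:61157842-61163830) had 966 RPKM and at most 0.485.

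Of 28 matched sarcomere and Z-disc genes, 27 were called higher in heart on both scales, and the other 1 was highest in heart. They took 14.7% of the reads on genes in heart and 0.0331% (spleen) to 0.147% (cerebellum) elsewhere. All 9 matched thick filament genes (of 11 listed) were called higher, with a median log2 ratio of 9.31 against -1.41 over all genes examined. Besides those named above they included MYL3 (the ventricular essential light chain) at 1020 RPKM, MYBPC3 (cardiac myosin-binding protein C) at 74.5 RPKM and the M-band proteins MYOM1 and MYOM2 at 57.9 and 125 RPKM. TTN had 516 RPKM in heart, 15.2 in lung, 6.07 in kidney, 0.408 in spleen and 0.179 in cerebellum on the transcript that stood for the gene. That transcript had 53698 heart reads on 1644 bp of exon. A longer TTN entry had 181900 heart reads on 16277 bp, and thus a lower RPKM in heart. The lowest member was MYL4, the atrial essential light chain, with 4.72 RPKM in heart, 0.246 in lung, 0.178 in spleen and 0 reads in cerebellum and kidney.

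Of 7 matched thin filament genes (of 9 listed) 6 were called higher, with a median log2 ratio of 7.19. TNNC1, the calcium sensor troponin C, had 966 RPKM in heart and 31.1 in lung, the highest other library. TPM1 (tropomyosin) had 761 RPKM in heart and 4.67 to 33.4 elsewhere, and NEBL (nebulette) had 117 RPKM in heart and 2.24 to 24.6 elsewhere. TMOD1, which caps the pointed end of actin filaments, was not called, with 46.9 RPKM in heart against 24.2 in lung, 11.5 in cerebellum, 0.897 in kidney and 0.688 in spleen. All 12 matched Z-disc and cytoskeleton genes (of 13 listed) were called higher, with a median log2 ratio of 9.40. ANKRD1 had 1334 RPKM in heart, 2.16 in lung, 0.377 in cerebellum and 0 reads in kidney and spleen. DES had 1037 RPKM in heart, 60.5 in lung, 32.3 in spleen and under 1 in cerebellum and kidney. LDB3 at 382 RPKM, MYOZ2 at 373 RPKM and ACTN2 (alpha-actinin) at 193 RPKM stayed under 4 RPKM in every other library.

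**Figure D2:**
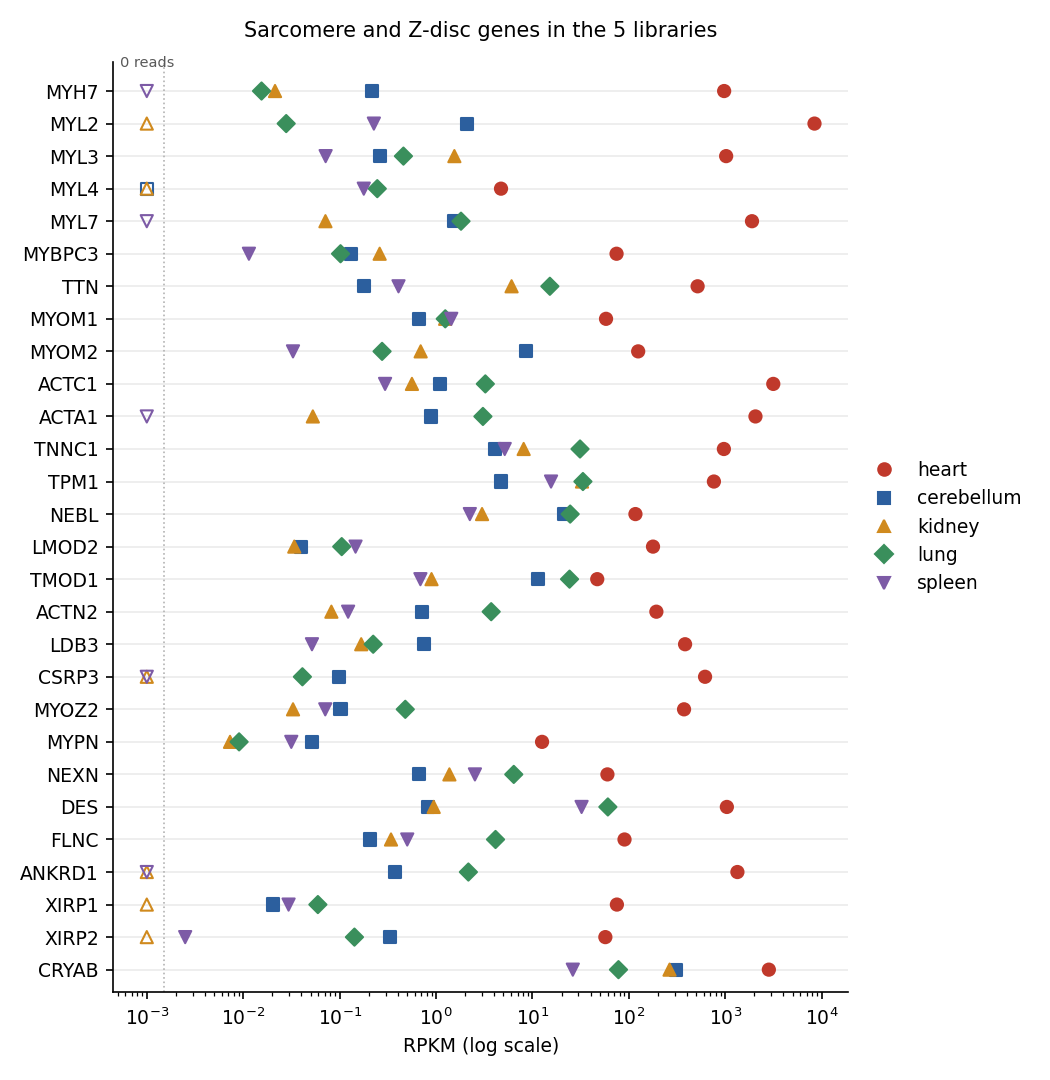
RPKM on a log axis of the 28 sarcomere and Z-disc genes, 1 symbol per library, with open symbols at the left edge for 0 reads. Heart is the rightmost symbol in every row, and the gap to the next library is widest for CSRP3 and MYH7 and smallest for TMOD1 (46.9 RPKM in heart, 24.2 in lung).

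Genes of excitation and calcium handling differed less. Of 10 matched calcium genes (of 14 listed), 4 were called higher by RPKM and 5 by share, beside 1.27% and 2.06% of all genes. By RPKM, 8 were highest in heart, beside 5.4% of all genes. CASQ2, the calcium buffer of the sarcoplasmic reticulum, had 160 RPKM in heart and at most 3.37 elsewhere. TRDN (triadin, which anchors it to the release channel) had 73.1 RPKM in heart and at most 0.133 elsewhere. ATP2A2, the calcium pump that refills the reticulum, had 148 RPKM in heart but 17.3 to 23.2 in every other library, a 6.35-fold difference from the highest. S100A1 (a calcium-binding regulator of contraction) had 341 RPKM in heart and 27.3 in cerebellum, the highest other. RYR2, the release channel, had 28.8 RPKM in heart and 9.87 in cerebellum, and was called by share only. CACNB2 and ASPH were higher in another library, with 6.81 RPKM in heart and 7.89 in cerebellum for CACNB2, and 14.3 in heart and 51.0 in spleen for ASPH.

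Of 11 matched ion channel and gap junction genes (of 14 listed), 2 were called higher by RPKM and 3 by share. Over all genes, the shares called higher were 1.27% and 2.06%. KCNJ5, a subunit of the acetylcholine-gated potassium channel, was called on both scales, with 1.54 RPKM in heart and at most 0.159 elsewhere. GJA1, the main gap junction protein of the ventricle, was not called, with 49.2 RPKM in heart, 40.0 in lung and 31.8 in cerebellum. KCNIP2 and KCNJ3 were higher in cerebellum (24.1 and 10.4 RPKM) than in heart (13.4 and 3.003 RPKM). HCN4, a pacemaker channel, had 0.0493 RPKM in heart and 0.638 in cerebellum.

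Of 5 matched genes of the natriuretic peptide system (of 6 listed), 2 were called higher on either scale, NPPA and the protease that activates its product, CORIN (4.08 RPKM in heart, at most 0.478 elsewhere). The receptor genes NPR1 and NPR3 were highest in lung (32.5 RPKM) and kidney (13.4 RPKM) and had 1.67 and 0.364 RPKM in heart. Of 10 matched cardiac transcription factors (of 12 listed), 4 were called higher on either scale. Beside both lists, 1.27% of all genes were called higher by RPKM and 2.06% by share. GATA4 had 16.2 RPKM in heart and at most 0.0920 elsewhere, and TBX20 had 3.32 RPKM in heart and 6 reads in 1 other library. HAND1 (6.29 RPKM) and IRX4 (3.58 RPKM) had 0 reads in all 4 other libraries, so they were at least 176-fold and 128-fold higher than the level of 3 reads in any of these. TBX5 was not called, because it had 20.2 RPKM in lung and 5.07 in heart, with 0 reads in the other 3 libraries. The widely expressed factors MEF2A, MEF2D and SRF were at 9.31 to 13.9 RPKM in heart and 4.04 to 22.3 RPKM elsewhere.

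The chamber was examined with 2 marker lists. Of 5 matched ventricular markers (of 7 listed), MYL2, MYL3, MYH7 and IRX4 were called higher and LBH was not, at 21.7 RPKM in heart and 30.6 to 45.7 in kidney, lung and spleen. Of 7 matched atrial markers (of 8 listed), 3 were called higher by RPKM, MYL7, NPPA and MYL4, and KCNA5 was added by share. Among all genes, 1.27% were called higher by RPKM and 2.06% by share. Within heart the ventricular MYL2 exceeded the atrial MYL7 per length, at 8406 against 1890 RPKM. GJA5 and NR2F2, which atrial cells express, were higher in lung (9.24 RPKM) and spleen (83.2 RPKM) than in heart (2.84 and 3.56 RPKM). Markers of both chambers were detected, and which part was dissected was not tested.

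Energy buffers, which store oxygen and phosphate bonds or gate fuel use, were nearly all higher in heart. Of 7 matched genes (of 9 listed), 6 were called higher on both scales, and the list took 3.45% of the reads on genes in heart and 0.0196 to 0.0725% elsewhere. The 6 include COX7A1, a cytochrome c oxidase subunit rather than a buffer, which is counted again under complexes II to V below. CKM, the muscle creatine kinase, had 1055 RPKM in heart, 1.21 in kidney, 0.782 in lung, 0.257 in cerebellum and 0 reads in spleen. CKMT2, its mitochondrial partner, had 187 RPKM in heart and at most 0.725 elsewhere. SLC25A4, the muscle ADP/ATP carrier, had 632 RPKM in heart and 17.4 to 53.4 elsewhere. PDK4, which inhibits pyruvate dehydrogenase when fat is burned, had 235 RPKM in heart and 51.7 in kidney, a 4.54-fold difference. LDHB was at 0.705 RPKM in heart and at most 1.15 in any library. Its reads may be lost to near-identical copies if only uniquely mapped reads were counted, which was not tested.

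The respiratory chain was higher as a group but by a smaller factor. Its 40 matched nuclear genes took 1.59% of the reads on genes in heart, 0.524% in kidney, 0.413% in cerebellum, 0.209% in spleen and 0.175% in lung, and 33 of them were highest in heart by RPKM. None of 18 matched complex I genes (of 37 listed) was called, with a median log2 ratio of 1.40. Over all genes, 1.27% were called higher by RPKM and 2.06% by share. NDUFS7 had 162 RPKM in heart against 82.5 in kidney, and NDUFS1 had 32.4 against 19.5. Of 22 matched genes of complexes II to V (of 41 listed), COX7A1 and ATP5MC1 were called by RPKM, and COX5A, COX6C, COX7B and ATP5F1C were added by share, with a median log2 ratio of 1.64. ATP5MC1, a gene for subunit c of ATP synthase, had 217 RPKM in heart and 12.7 to 28.1 elsewhere. ATP5MC2, which encodes the same mature subunit, had 275 RPKM in heart and 101 to 213 elsewhere. The 7 genes that were higher in another library included ATP5MC3 (30.4 RPKM in heart, 38.8 in kidney), NDUFA10 (47.1 in heart, 53.2 in kidney) and UQCRH (0.832 in heart, 40.9 in kidney). None of the 13 mitochondrially encoded proteins listed could be measured.

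Genes of fatty acid oxidation were shared with kidney. They took 0.537% (0.533 to 0.540%) of the reads on genes in heart and 0.562% (0.558 to 0.565%) in kidney, against 0.0862 to 0.125% in cerebellum, lung and spleen. Of 20 matched genes (of 23 listed), 1 was called by RPKM and 2 by share, beside 1.27% and 2.06% of all genes called higher. The called gene, CPT1B, is the muscle form of the enzyme that admits long-chain fatty acids to mitochondria, with 43.4 RPKM in heart and 1.54 to 6.40 elsewhere. HADHB and ACADVL of the oxidation cycle were highest in heart, at 154 and 85.3 RPKM against 93.6 and 62.4 RPKM in kidney. ACAA2, ACADM and CPT2 were highest in kidney, at 202, 109 and 51.4 RPKM against 35.2, 40.5 and 9.02 RPKM in heart. PPARGC1A, a coactivator of mitochondrial genes, had 18.6 RPKM in kidney, 10.01 in heart and 0.978 to 3.56 in the others. SLC27A6, a fatty acid transporter, had 83 reads in heart (0.704 RPKM), 16 in lung and 0 in the other 3.

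Of 18 matched tricarboxylic acid cycle genes, 0 were called by RPKM and 2, IDH2 and MDH2, by share. Over all genes, 1.27% and 2.06% were called higher on these scales. Of the 17 cycle genes that reached 1 RPKM, 9 were highest in heart by RPKM, beside 5.4% of all genes. IDH2 had 132 RPKM in heart and 42.3 in kidney, and MDH2 had 107 and 37.5. CS (citrate synthase, 104 RPKM) was highest in heart, whereas SUCLG1 was highest in kidney, at 203 RPKM against 146 in heart. Of 17 matched glycolysis genes (of 22 listed), 2 were called higher on either scale, PFKM and SLC2A4, and the list's median log2 ratio was 0.13, or 0.92 by share and -0.12 by RPKM without spleen. ALDOC, the brain aldolase, had 524 RPKM in cerebellum and 58.6 RPKM in heart. GAPDH had 673 RPKM in heart, 266 in spleen, 270 in lung, 706 in kidney and 773 in cerebellum.

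**Figure D3:**
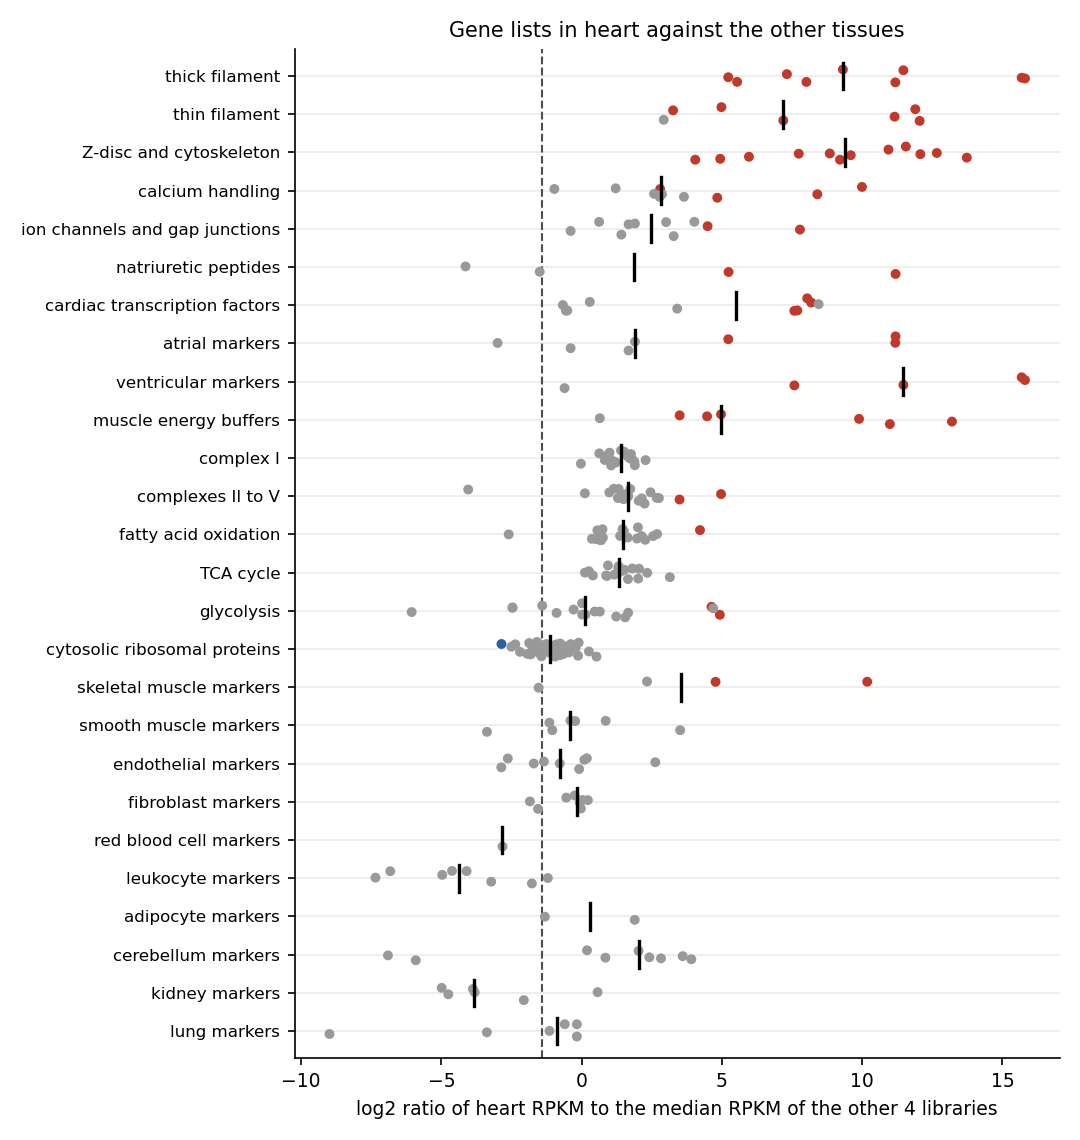
Log2 ratio of heart RPKM to the median RPKM of the other 4 libraries for each gene of 26 lists that reached 1 RPKM in any library, with red points for genes called higher, a blue point for the gene called lower, grey for neither, black ticks at list medians and a dashed line at the median of all genes examined (-1.41). The thick filament, thin filament and Z-disc lists lie at medians of 9.31, 7.19 and 9.40, the respiratory chain lists at 1.40 and 1.64, and the ribosomal proteins at -1.14.

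Protein families with a muscle form were compared gene by gene, and they were chosen after their values were seen. CPT1A, the liver form beside CPT1B, had 3.62 RPKM in heart, 2.28 in cerebellum and 18.7 to 28.9 in kidney, lung and spleen. PFKM, the muscle phosphofructokinase, had 146 RPKM in heart and 3.56 to 26.0 elsewhere, while the liver form PFKL had 3.98 in heart and 8.59 to 27.7 elsewhere. PFKP, the third form, had 23.9 RPKM in heart, below cerebellum (90.1) but above kidney, lung and spleen (3.89 to 10.3). SLC2A4, the insulin-responsive glucose transporter, had 33.9 RPKM in heart and 0.235 to 1.81 elsewhere. SLC2A1 had 4.83 in heart, below cerebellum (28.4) and kidney (6.94) but above lung (2.23) and spleen (2.63). Of the calcium pumps, ATP2A3 had 1.06 RPKM in heart and 4.45 to 81.7 elsewhere, and ATP2A1, the fast skeletal form, was under 0.5 RPKM in all 5 libraries. FLNC, the muscle filamin, had 90.0 RPKM in heart and 0.205 to 4.14 elsewhere, while the widely expressed FLNA had 12.9 RPKM in heart, 6.89 in cerebellum, 20.5 in kidney, 52.9 in spleen and 115 in lung. RPL3L, a muscle-specific ribosomal protein, had 37.5 RPKM in heart, at most 0.0182 in kidney and lung and 0 reads in cerebellum and spleen. RPL3, its widely expressed counterpart, was at 1.03 RPKM in heart and at most 4.07 elsewhere, but as RPL3 has near-identical copies this level is uncertain.

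**Figure D4:**
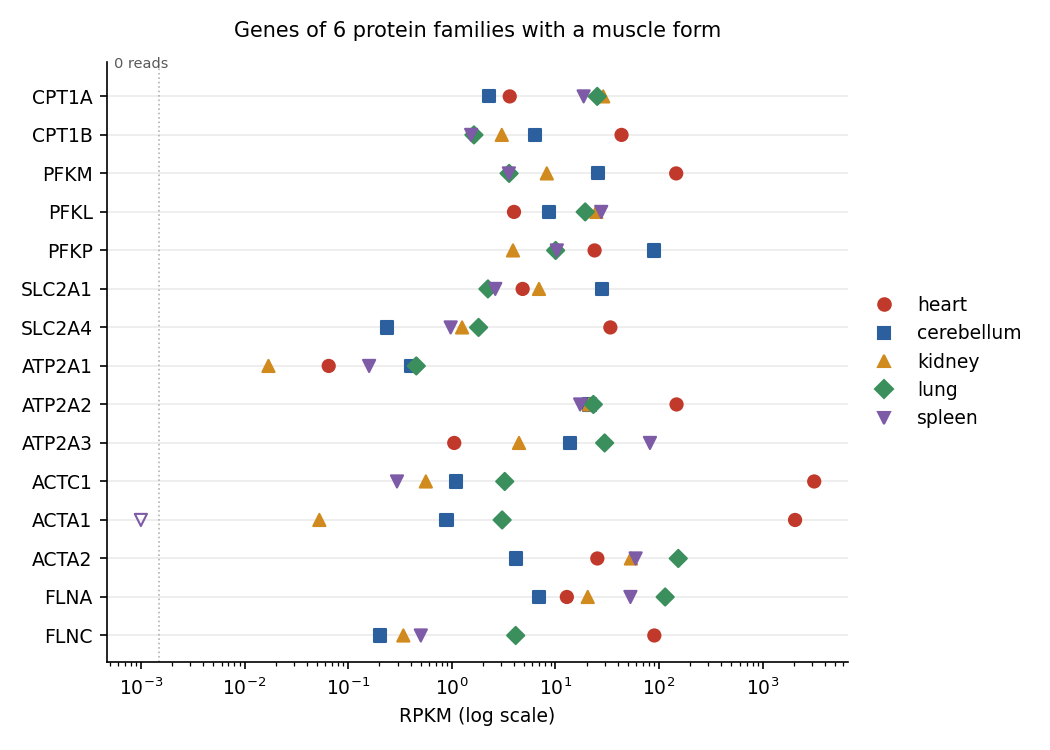
RPKM on a log axis of 15 genes of 6 protein families, 1 symbol per library, with an open symbol at the left edge for 0 reads. Heart is the rightmost symbol for CPT1B, PFKM, SLC2A4, ATP2A2, ACTC1, ACTA1 and FLNC, and the leftmost for PFKL and ATP2A3.

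Among the genes lower in heart, 47 reached 10 RPKM or more in all 4 other libraries, and 12 of these were also lower by share. The lowest ratio was that of RPS6KA1, a kinase downstream of growth factor signalling, with 0.601 RPKM in heart (119 reads, 0.502 to 0.719), 14.1 in kidney, 17.2 in lung, 25.1 in cerebellum and 31.6 in spleen. Even kidney, the lowest other library, was 23.4-fold (19.5 to 28.4) above heart by RPKM and 14.01-fold by share. CYFIP2, a subunit of the complex that drives branched actin assembly, had 1.13 RPKM in heart and 21.3 (kidney) to 38.2 (cerebellum) elsewhere. A second row, ENSMMUG00000011008 at chr6:153770657-153774006, overlaps the end of CYFIP2 and had 1.11 RPKM in heart, so the pair may be 1 signal. TKT (transketolase of the pentose phosphate pathway) had 1.93 RPKM in heart and 25.7 to 33.4 elsewhere, a narrow range among the other tissues. PLXNB2 (a semaphorin receptor) had 2.57 RPKM in heart and 30.6 to 70.2 elsewhere. MTSS1, which bends membranes at actin, had 1.31 RPKM in heart and 14.2 to 16.6 elsewhere.

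PRRG1 had 1.57 RPKM in heart and 14.6 in lung, with 190 in cerebellum. PGRMC1 (a haem-binding membrane protein) had 2.02 RPKM in heart and 89.6 in kidney, with 16.6 to 22.7 in the other 3. APOE, the apolipoprotein of cholesterol transport, had 6.84 RPKM in heart, 54.0 in kidney, 55.9 in lung, 80.9 in cerebellum and 138 in spleen. BBLN, AP1G2 (an adaptor of vesicle coats) and ZMAT1 had 1.38, 1.65 and 1.90 RPKM in heart and at least 10.7, 11.5 and 13.1 RPKM elsewhere. These 11 genes with a symbol, from RPS6KA1 to ZMAT1, were lower by share too. PIP4K2C (a phosphoinositide kinase) and ZC3H7B (a zinc finger protein) were lower by RPKM, at 1.90 and 3.66 RPKM in heart, but by share their lowest other library exceeded heart by 3.84-fold and 3.24-fold only. Apart from PRRG1, PGRMC1 and APOE, the lower genes named here had at most 70.2 RPKM in any library.

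**Figure D5:**
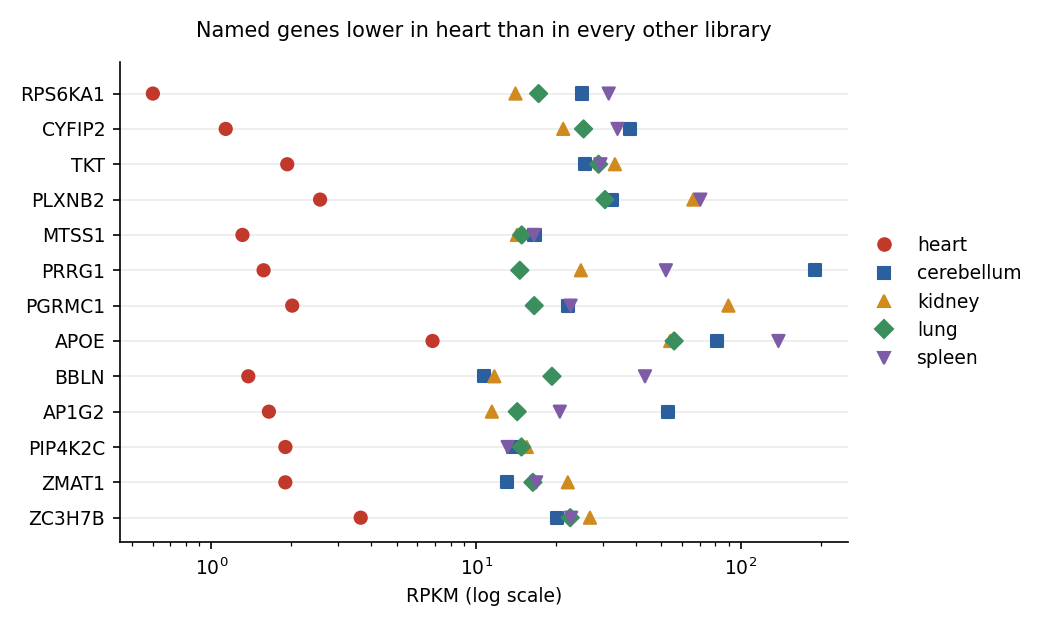
RPKM on a log axis of the 13 genes with a symbol among the 15 with the lowest ratio of heart to the lowest other library, 1 symbol per library. Heart is the leftmost symbol in every row, from 0.601 RPKM (RPS6KA1) to 6.84 RPKM (APOE). No other library is under 10 RPKM. Both follow from how these genes were chosen.

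Cytosolic ribosomal protein genes were called about as seldom as all genes. Of 53 matched genes (of 75 listed), 48 reached 1 RPKM, 1 (RPL37A, with 4 reads in heart) was called lower by RPKM and 0 by share, and 0 were called higher, beside 3.26% lower and 1.27% higher by RPKM over all genes. Heart was the lowest library for 29 of the 48 by RPKM and for 14 by share, beside 52.6% and 32.8% over all genes, and the highest for 0 by RPKM. Their summed RPKM was 1516 in heart and 1531 (cerebellum) to 4775 (spleen) elsewhere. They took 0.419% of the reads on genes in heart, 0.365% to 0.418% in cerebellum, kidney and lung, and 0.780% in spleen. RPL10A had 400.0 RPKM in heart, 340 in cerebellum and 629 to 1354 in the other 3, and RPS14 had 114 in heart, 69.9 in cerebellum and 138 to 364 in the other 3. RPS7 had 112 in heart, 37.5 in cerebellum, 44.5 in kidney, 111 in spleen and 166 in lung. Ribosomal genes have many copies, so rows with few reads are uncertain.

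The endothelial, fibroblast, smooth muscle and leukocyte marker lists had lower sums in heart than in lung. None of 9 endothelial, 8 fibroblast, 7 smooth muscle and 8 leukocyte markers matched was called higher or lower in heart, where 1.27% and 3.26% of all genes were. The endothelial list summed to 80.2 RPKM in heart, 13.6 in cerebellum, 76.7 in kidney, 195 in spleen and 574 in lung. VWF and PECAM1 had 13.1 and 14.4 RPKM in heart against 51.6 and 162 in lung. The fibroblast list summed to 178 RPKM in heart and 18.8 (cerebellum) to 455 (lung) elsewhere, with the matrix protein gene DCN at 117 RPKM in heart and 275 in lung. The smooth muscle list summed to 165 RPKM in heart and 21.4 to 504 elsewhere, and CNN1 and SMTN were highest in heart, at 55.6 and 14.5 RPKM. The leukocyte list summed to 159 RPKM in heart, 1074 in lung and 2676 in spleen. Its heart sum came mostly from CD74 (145 RPKM), whereas PTPRC, the pan-leukocyte antigen, was at 0.649 RPKM and CD3E and MS4A1 had 2 reads each. Of 4 red blood cell markers matched, only 1 reached 1 RPKM in any library, and HBA1 and AHSP had 0 reads in heart. That list summed to 0.295 RPKM in heart, 0.0250 in cerebellum, 0.0863 in kidney, 2.10 in spleen and 2.53 in lung, low in every library. Of 4 adipocyte markers, ADIPOQ was highest in heart. The adipocyte list summed to 2.98 RPKM in heart and 1.66 to 3.68 elsewhere.

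Skeletal muscle markers were under 0.25 RPKM in heart apart from TNNT1, MYL1 and TNNT3 (2.53 RPKM in heart, 1.46 in lung). Of 10 matched genes (of 15 listed), 4 reached 1 RPKM in any library. Of these 4, 2 were called higher in heart, beside 1.27% of all genes by RPKM. The list summed to 76.9 RPKM in heart, 67.4 in spleen and 0.343 to 4.63 in the other 3, and the spleen sum was almost all TNNI2, a fast skeletal troponin I (65.8 RPKM in spleen, 0.241 in heart). TNNT1, the slow skeletal troponin T, had 72.8 RPKM in heart and 1.43 in cerebellum, the highest other. MYL1, the fast skeletal essential light chain, had 1.04 RPKM in heart and 0 reads elsewhere, at least 18.3-fold above the level of 3 reads. MYOD1 and ACTN3 had 0 reads in heart, and MYH4 had 2.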

How the data were processed

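Poly(A)-positive RNA (RNA integrity number above 7.5 per the labels) was sequenced on strand-specific dUTP libraries. Per the study's methods, BWA placed the reads on rheMac2 and on Ensembl transcripts, and those that mapped uniquely were kept. The labels also name TopHat 1.2.0. The counting tool is not given in the sources used here, and the study's methods do not say whether the counts follow the uniqueness rule. The authors deposited, per transcript of revised gene models, read counts that were not normalized and RPKM values, and a check found that every RPKM value could be recomputed from the counts. File totals were 48306898 to 81517974 properly mapped reads, with 3 reads on a 1000 bp transcript worth 0.0368 to 0.0621 RPKM.

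Samples were grouped by tissue label. Each gene took the transcript with the highest RPKM sum. The calling rule, with a minimum of 1 RPKM, a fold of 4 and a floor of 3 reads, stands in for a test. Wilson intervals were used for shares and levels, and exact (Clopper-Pearson) intervals of read splits for ratios. Symbols came from a table of Ensembl identifiers (15556 of 28633 matched). Of these, 147 were left out because RefSeq (T2T-MMU8v2.0) places the symbol on another chromosome. Unmatched list genes were not analysed here, and a few list members are not reported here. Named genes were the 20 transcripts with most reads and the 15 genes with the highest RPKM in heart, the 15 with the highest and the lowest ratios among genes of at least 10 RPKM, and members of 27 lists. The members and lists were chosen with earlier results of these data known. Starts are 1-based. For 7 transcripts the files give unequal exon lengths, which were left as they are. The rule was tried on simulated counts with planted changes larger than the called fold. Apart from these, the simulation held no tissue differences and no deficit of counted heart reads, so it does not bear on the choice of scale. Alternatives covered the fold, the filter, the transcript, the scaling, a pseudocount and left-out tissues. Analyses ran in Python 3.11.15 with pandas 2.3.3, numpy 2.4.6, scipy 1.17.1 and matplotlib 3.10.9.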

Additional observations from a re-analysis of the deposited data

Results flagged for a closer look

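Transcripts without a gene identifier were outside the comparisons above. Of 3354 such transcripts with at least 1 RPKM in any library, 97 were higher in heart by the same rule and 75 were lower. Among genes with an identifier, taken with 1 transcript each, 1.27% were higher and 3.26% lower. The highest in heart was a transcript of 3885 bp of exon at chr1:123312284-123341905 with 55.5 RPKM in heart, 7.24 in cerebellum and 0.384 to 0.715 in the other 3 libraries. The second, at chr1:123319125-123341843 with 54.8 RPKM in heart, lies inside that interval, so transcripts counted here can overlap. The third, at chr4:140440527-140500946, had 54.6 RPKM (2836 reads) in heart and 0 reads in all 4 other libraries.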

How the results depend on the processing

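The count of 200 genes higher in heart by RPKM became 376 at 2-fold, 411 with upper quartile scaling and 475 with median of ratios scaling, and it was 143 to 297 under the other alternatives. The count of 512 lower genes was less stable, with 2762 at 2-fold, 87 at 10-fold, 955 without a filter on low levels, 155 with a filter at 5 RPKM, 98 with upper quartile scaling, 77 with median of ratios scaling and 55 with a pseudocount of 1. It became 1342 without cerebellum and 990 without kidney, alternatives chosen after seeing the data. By share, the 331 higher genes became 727 at 2-fold, and the 179 lower genes became 895 at 2-fold and 299 without spleen. The heart reads in the first 20 transcripts, 12.5% of the counted reads, became 19.1% with 1 transcript per gene, 18.0% of the summed RPKM and 6.01% of the properly mapped reads. All 15 of the named higher genes kept their call under the 6 alternatives tried. They had been picked for the highest ratios, 968-fold or more, so these alternatives could hardly undo a call. Of the 15 named lower genes 12 kept the call by share, 8 with upper quartile scaling, 6 at 10-fold and 5 with median of ratios scaling. All 15 kept it with a pseudocount or without spleen. Leaving out a library cannot undo a call, because the rule uses the highest or lowest of the others. Of 26 lists, 23 lay above the median of all genes, and 19 to 25 did under the alternatives. The median log2 ratio changed sign under at least 1 alternative for 11 of the 26 lists. Among lists at least 2 from 0, it became 0.0245 for red blood cell markers and 0.30 for kidney markers without spleen, and -8.09 for cerebellum markers against the highest other library. The median over all genes was -0.31 with upper quartile scaling and -0.08 with median of ratios scaling. The cause of these changes was not tested. No paired analysis was possible because each tissue had 1 library. Depth limits values near 3 reads, and 1 library per tissue leaves the variation between animals unknown.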

Other observations

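Genes of the cerebellum were detected at a low level in heart. Of 9 cerebellum markers, 8 had 18 to 970 reads in heart, and PVALB had 2. Not all of these were higher in heart than in the other tissues, since MBP had 7.79 RPKM in heart, 8.13 in kidney, 5.53 in spleen and 5.32 in lung, and CALB1 had 0.456 in heart, 488 in kidney and 1.21 in lung. CBLN1, a synaptic organizer secreted by granule cells, had 204 RPKM in cerebellum, 0.810 in heart (72 reads), 0.0637 in spleen and 0 reads in kidney and lung. GABRA6, a receptor subunit of granule cells, had 47.3 RPKM in cerebellum, 0.174 in heart (41 reads) and 0 reads in the other 3 libraries. GFAP, the intermediate filament of astrocytes, had 46.6 RPKM in cerebellum, 0.190 in heart (18 reads) and 0 reads in the other 3. Relative to cerebellum, the heart level was 0.397% for CBLN1, 0.367% for GABRA6, 0.408% for GFAP and 0.254% for NEUROD1.

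Heart genes were looked up in the other libraries in turn. Over 18 named genes that were at least 100-fold higher in heart, a choice that caps their level elsewhere at 1% and so allows no comparison with the values above, the cerebellum level was a median 0.0314% of the heart level (0.00450 to 0.0804%), and all 18 had reads there. The medians were 0.00238% in kidney, 0.0145% in lung and 0 in spleen, where 10 of the 18 genes had 0 reads. Of 6 kidney markers, 5 had 0 reads in heart. Of 6 lung markers, SFTPB, SFTPC, SFTPD and SCGB1A1 had 0 reads in heart, although SFTPC had 4095 RPKM in lung, while AGER and NAPSA had 10 and 6 reads. The source of the cerebellum reads in heart was not tested.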
